A study of Homo sapiens with 9 samples.

Results

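The comparison described here sets 3 RNA sequencing libraries of 143B cells taken after 48 h with 0.5 µM XD23 against 3 control libraries taken at 0 h, and follows the protein-coding genes down the whole order of their changes. 143B is an established human osteosarcoma line, a cultured cell line derived from a bone cancer, and the labels give XD23 by its code name only. Members were all genes with at least 1 FPKM (sequenced fragments scaled by exon length and by library depth) in at least 3 of these 6 libraries. That left 13225 of the 36810 genes of the table, 10768 of them protein-coding, out of 17169 protein-coding genes in the table. Of the 6401 protein-coding genes left out, 6109 lay under 1 FPKM in all 6 libraries. The series holds 9 libraries, with 3 more taken after 24 h with the same dose, whose values are given beside the others.

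The control libraries are labelled as control cells at 0 h. No vehicle and no untreated cells kept for 48 h are named, so the compound and the time in culture cannot be told apart. The labels leave unsaid if replicate libraries stem from separate cultures, so p-values measure the spread between these libraries, which may be technical. The 6 libraries held 18341542 to 22901830 fragments, an estimate calculated back from FPKM and gene length. On the first principal component, with 53.1% of their variance, control libraries scored -16.01 to -14.69 and 48 h libraries 13.61 to 16.7. The third 24 h library stood apart from the rest, because the protein-coding genes with the shortest exons lay 0.27 higher on the log2 scale, relative to those with the longest, than in the controls. The same difference was -0.03 and -0.01 in the other 24 h libraries, -0.04 to 0.04 in the controls and -0.19 to -0.05 at 48 h.

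Markers of bone and mesenchymal cells went only partly with the label of the line. The filament protein VIM stood at 297 to 311 FPKM in the controls and 347 to 374 FPKM at 48 h, and RUNX2, the transcription factor that starts the bone-forming lineage, at 6.02 to 6.61 FPKM and 4.06 to 4.26 FPKM. Of the 13 bone and mesenchymal markers in the table, 5 lay under 0.1 FPKM in all 6 libraries, among them the mature bone genes BGLAP and SP7. The keratins KRT8 and KRT18, better known from epithelia, were present and called lower. The 6 epithelial markers in the table summed to 185 to 193 FPKM in the controls and 140 to 154 FPKM at 48 h. Nearly all of this came from KRT18 (153 to 161 FPKM, then 118 to 130 FPKM) and KRT8. EPCAM was called lower too, whereas CLDN4, under the filter, went from 0.437 to 0.685 FPKM up to 0.734 to 0.830 FPKM. KRT19 and ESRP1 stood at 0.163 FPKM or less. The sums of blood cell markers were at most 0.279 FPKM and those of endothelial and adipocyte markers at most 0.858 and 0.651 FPKM. Skeletal muscle markers summed to 2.20 to 2.64 FPKM in the controls and 1.5 to 1.67 FPKM at 48 h, nearly all from MYH3 (called lower), and neuronal markers to 1.75 to 2.17 FPKM and 1.18 to 1.55 FPKM, mostly from SNAP25 (called lower). In bulk RNA fewer cells of a type and less RNA per cell cannot be told apart.

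As background, a compound kept on dividing cells can change transcripts of several kinds. Immediate early and stress genes answer signals at the membrane or in the cytoplasm within minutes to hours, genes of the Hippo and SRF pathways follow cell tension and density, and E2F factors switch on genes of DNA replication as cells pass into S phase. Genes of mitochondria, nucleotide synthesis and ribosome production are housekeeping genes that follow growth. TATA boxes, a short sequence just before the start of a gene, mark many strongly regulated genes, whereas most housekeeping genes start from promoters without one.

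The promoters of 5 genes at the ends of the order are shown because they carry the sequences compared across the order further on. Each holds 300 bases, from 250 before to 50 after the start given by RefSeq promoters of build GRCh38.p14, read 5′ to 3′ on the strand of the gene. Where a gene had several promoters the first listed was used. This start need not be the outer end of the gene, and in ANGPTL4 it lies inside the gene coordinates given further on. Capitals mark the letters TATAAA in the first 4 and TTTGGCGC, a form of the E2F site, in the last. The TATAAA begins 29 bases before the start in ANGPTL4 (chr19:8363905-8364204, plus strand), 27 before it in ADM (chr11:10304823-10305122, plus strand), 30 before it in DKK1 (chr10:52314031-52314330, plus strand) and 32 before it in CCN2 (chr6:131951323-131951622, minus strand). In CDC25A (chr3:48188368-48188667, minus strand) the E2F letters begin 44 bases before the start.
ANGPTL4: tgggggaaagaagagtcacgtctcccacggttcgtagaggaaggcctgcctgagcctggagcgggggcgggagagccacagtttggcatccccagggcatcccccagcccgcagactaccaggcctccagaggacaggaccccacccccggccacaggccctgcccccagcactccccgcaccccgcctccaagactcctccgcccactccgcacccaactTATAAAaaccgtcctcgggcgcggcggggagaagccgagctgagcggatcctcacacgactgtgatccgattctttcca
ADM: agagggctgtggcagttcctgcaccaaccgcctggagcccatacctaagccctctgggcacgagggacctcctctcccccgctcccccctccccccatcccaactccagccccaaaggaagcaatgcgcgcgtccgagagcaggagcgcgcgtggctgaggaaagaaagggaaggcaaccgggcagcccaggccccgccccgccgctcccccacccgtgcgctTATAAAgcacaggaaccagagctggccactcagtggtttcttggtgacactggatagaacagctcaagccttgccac
DKK1: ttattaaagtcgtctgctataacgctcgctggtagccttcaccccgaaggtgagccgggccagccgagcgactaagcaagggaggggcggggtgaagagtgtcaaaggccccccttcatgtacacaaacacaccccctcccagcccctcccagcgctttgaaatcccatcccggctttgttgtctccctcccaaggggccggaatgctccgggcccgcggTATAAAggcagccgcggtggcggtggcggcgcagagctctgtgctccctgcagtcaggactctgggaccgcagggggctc
CCN2: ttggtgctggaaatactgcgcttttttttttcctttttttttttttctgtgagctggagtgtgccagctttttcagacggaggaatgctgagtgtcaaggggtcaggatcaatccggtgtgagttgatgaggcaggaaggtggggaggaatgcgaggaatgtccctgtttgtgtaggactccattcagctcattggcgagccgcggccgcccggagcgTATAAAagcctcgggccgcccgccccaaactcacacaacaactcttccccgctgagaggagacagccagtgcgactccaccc
CDC25A: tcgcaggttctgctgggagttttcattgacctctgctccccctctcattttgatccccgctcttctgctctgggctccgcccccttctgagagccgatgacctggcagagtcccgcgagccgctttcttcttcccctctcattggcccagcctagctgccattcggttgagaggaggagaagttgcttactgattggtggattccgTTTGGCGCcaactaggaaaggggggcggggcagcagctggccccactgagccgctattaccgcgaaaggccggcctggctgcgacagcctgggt

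Among the 10768 protein-coding genes, 2126 were higher and 2176 lower at 48 h (limma, Benjamini-Hochberg adjusted p under 0.05 over all 13225 genes). These are 19.7% and 20.2% of the genes tested, and 40.0% were called in either direction. With median-of-ratios scaling between libraries the split was 2544 higher and 1709 lower, so 59.8% of the calls were higher where 49.4% were higher without it. Most changes were small. The log2 fold change, given throughout as 48 h over control on the log2(FPKM + 1) scale, lay between -0.35 and 0.38 for the genes from the 5th to the 95th percentile. It was under 0.1 in size for 4217 genes and at least 0.5 in size for 381, of which 256 were higher and 125 lower. Only 26 genes (0.241%) were called with a change of at least 1, 21 higher and 5 lower (0.0464%). Over all 13225 genes, other gene types included, 0.529% were. Another 1948 genes were called with a change under 0.25.

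**Figure D1:**
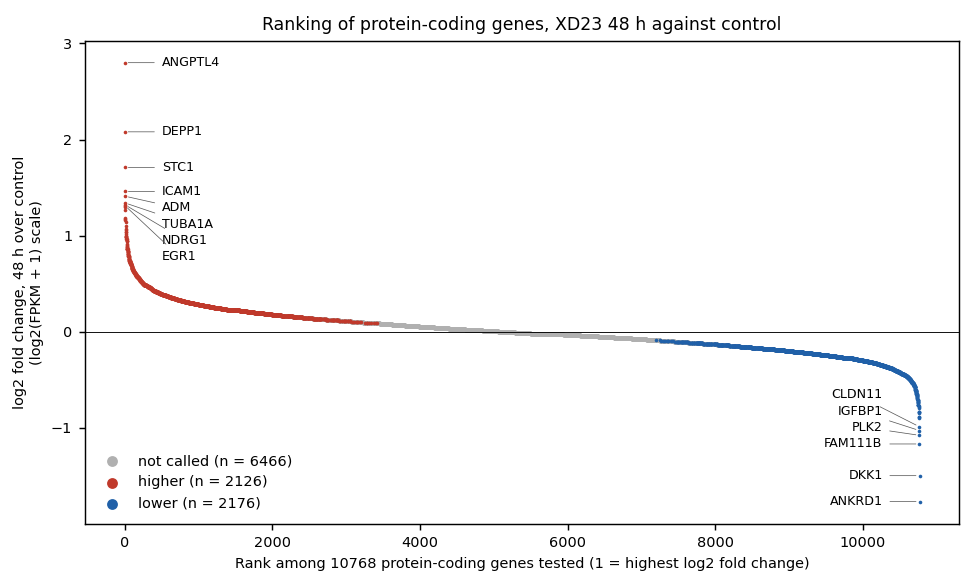
The log2 fold change of each of the 10768 protein-coding genes (vertical axis, 48 h over control) is plotted against its rank (horizontal axis), with genes called higher in red, called lower in blue and not called in grey. The curve is steep at both ends, from ANGPTL4 at 2.80 to ANKRD1 at -1.77, and nearly flat between.

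The genes along the order show what each step means in FPKM. At the 99th percentile CCL2, a chemokine that draws monocytes, had 2.41, 1.56 and 1.89 FPKM in the controls and 3.53, 3.34 and 3.97 FPKM at 48 h (log2 fold change 0.65 ± 0.11 SE, adjusted p = 0.00483). LAMB2, a laminin chain, stood at the 95th with 5.14, 4.5 and 4.8 FPKM and then 5.99, 6.56 and 7.14 FPKM (0.38 ± 0.07, adjusted p = 0.00608). In both genes the 48 h values lay above all controls. In the middle, the ribosomal protein gene RPL29 had 664, 653 and 681 FPKM in the controls and 664, 631 and 690 FPKM at 48 h, values that overlap (-0.01, adjusted p = 0.876). PIK3R3 at the 75th percentile (0.13, adjusted p = 0.252) and CHAMP1 at the 25th (-0.14, adjusted p = 0.091) were not called. Their groups did not overlap either, and 55.9% of all protein-coding genes tested had no overlap. CLDN15, a claudin of tight junctions, stood at the 5th percentile with 1.95, 1.92 and 2.13 FPKM in the controls and 1.19, 1.37 and 1.52 FPKM at 48 h. At the 1st percentile EPRS1, the enzyme that loads glutamate and proline onto transfer RNA, had 94.2, 96.2 and 97 FPKM in the controls and 67.8, 68.4 and 63.5 FPKM at 48 h (-0.52 ± 0.04, adjusted p = 0.000232), with no overlap.

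The gene at the top was ANGPTL4, a secreted inhibitor of lipoprotein lipase (ENSG00000167772, chromosome 19, 8363289 to 8374373, plus strand, GRCh38). It had 2.93, 1.68 and 2.31 FPKM in the controls, 1.44, 0.877 and 1.66 FPKM at 24 h and 19.7, 24.6 and 21.2 FPKM at 48 h. Every 48 h value lay far above every other, and the mean was 9.47-fold the control mean (log2 fold change 2.80 ± 0.14, adjusted p = 0.000117). DEPP1, a gene induced by FOXO factors, came next with 0.854, 0.571 and 0.531 FPKM in the controls and 4.51, 6.41 and 7.22 FPKM at 48 h (2.08 ± 0.15, adjusted p = 0.000265). Its 24 h values were 0.421, 0.233 and 0.337 FPKM, all below the controls. STC1, a secreted glycoprotein hormone, had 5.58, 4.64 and 4.95 FPKM in the controls and 18, 19.7 and 18.7 FPKM at 48 h, a mean 3.72-fold higher.

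Several other secreted factors and surface proteins stood among the 20 highest. ICAM1, the adhesion molecule that white blood cells bind, had 8.26, 9.07 and 9.6 FPKM in the controls, 7.55, 8.12 and 8.34 FPKM at 24 h and 25.7, 27.5 and 26.3 FPKM at 48 h (1.46 ± 0.06, adjusted p = 6.22e-05). ADM, the vasodilating peptide adrenomedullin, had 6.88, 5.42 and 6.47 FPKM and then 16, 18.8 and 20.3 FPKM at 48 h (1.41 ± 0.10, adjusted p = 0.000258). For both the 48 h libraries formed a group of their own. LIF, a cytokine of the interleukin-6 family, had 2.5, 2.82 and 3.34 FPKM in the controls and 7.12, 8.05 and 7.37 FPKM at 48 h. INHBA, the subunit of activin A, had 3.04, 3.37 and 3.15 FPKM and then 7.8, 8.42 and 7.69 FPKM. PTGS2, the inducible enzyme of prostaglandin synthesis, had 8.46, 8.44 and 8.32 FPKM in the controls and 16.9, 20.5 and 17.1 FPKM at 48 h. In all 3 genes no 48 h value overlapped a control value. The guidance receptor NRP2 (1.04) and its relative by pathway SEMA4B (1.18), a membrane semaphorin, belong to a family described further on.

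Transcription factors and signalling regulators were also near the top. EGR1, an immediate early zinc finger factor, had 29.3, 31.3 and 29.4 FPKM in the controls and 72.8, 77 and 78.3 FPKM at 48 h (1.31 ± 0.04, adjusted p = 4.96e-05). BHLHE40, a repressor tied to the circadian clock and low oxygen, had 42, 42.6 and 40.3 FPKM, then 36.6, 33.5 and 37.9 FPKM at 24 h and 99.4, 105 and 100 FPKM at 48 h. The 3 24 h values lay below all controls and the 3 48 h values above them (1.27 ± 0.04, adjusted p = 4.54e-05). CEBPD, a factor of the acute phase response, had 3.79, 4.48 and 4.57 FPKM in the controls and 8.99, 11.1 and 10.2 FPKM at 48 h. DACT1, an adaptor that binds Dishevelled in Wnt signalling, had 1.49, 1.53 and 1.8 FPKM and then 4.72, 5.83 and 5.8 FPKM. PMEPA1, a membrane protein that restrains TGF-β signalling, had 8.84, 9.92 and 9.29 FPKM in the controls and 20.5, 20.4 and 20.8 FPKM at 48 h. All of these were called, with log2 fold changes of 1.06 to 1.31.

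The remaining genes of the 20 highest have varied roles. SLC2A3, the glucose transporter GLUT3, had 11, 10 and 10.5 FPKM in the controls and 23.4, 26.1 and 25.1 FPKM at 48 h (1.17 ± 0.05, adjusted p = 7.69e-05). TXNIP, an arrestin-like protein that lowers glucose uptake and binds thioredoxin, had 19.5, 22 and 21.8 FPKM, then 25.9, 24.5 and 25.3 FPKM at 24 h and 44, 50.7 and 51 FPKM at 48 h. Of the 20 highest genes TXNIP was the one whose 24 h values all lay above the controls. PPP1R3B, which brings protein phosphatase 1 to glycogen, had 2.75, 2.6 and 2.48 FPKM in the controls and 6.02, 6.78 and 6.49 FPKM at 48 h. NDRG1, a stress-responsive gene known to follow low oxygen, had 9.45, 8.32 and 8.69 FPKM and then 20.4, 26 and 24.6 FPKM. TUBA1A, an α-tubulin, had 15.9, 16.9 and 19.4 FPKM in the controls and 46.1, 42.2 and 48.1 FPKM at 48 h, a value that is uncertain because near-identical tubulin genes can share its reads.

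ANKRD1 lay at the bottom of the order (ENSG00000148677, chromosome 10, 90912096 to 90921276, minus strand, GRCh38). It encodes an ankyrin repeat protein and is a well known target of YAP, the effector of the Hippo pathway. It had 9.4, 7.63 and 8.35 FPKM in the controls, 7.81, 7.56 and 5.63 FPKM at 24 h and 1.86, 1.76 and 1.68 FPKM at 48 h. The 48 h mean was 4.80-fold below the control mean and the change was -1.77 ± 0.07 (adjusted p = 7.3e-05). CCN2, a matricellular growth factor and another YAP target, had 170, 158 and 156 FPKM in the controls, 144, 138 and 160 FPKM at 24 h and 85.4, 85.1 and 89.2 FPKM at 48 h (-0.89 ± 0.04, adjusted p = 8.75e-05). DKK1, the secreted Wnt inhibitor named in the title of the series, came second from the bottom with 22.3, 19.4 and 21 FPKM, then 19.8, 19.4 and 21.8 FPKM at 24 h and 6.98, 6.72 and 6.54 FPKM at 48 h. Its change was -1.50 ± 0.05 (adjusted p = 6.22e-05), and a two-sided exact permutation test gave p = 0.1, the smallest that 3 against 3 libraries allow.

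Several genes of the cell cycle were also among the 20 lowest, named here from their place in the order and not from a list. CCNE2, a cyclin that starts DNA replication, had 4.71, 5.13 and 5.08 FPKM in the controls and 2.56, 1.9 and 2.17 FPKM at 48 h (-0.90 ± 0.08, adjusted p = 0.000482). Its partner by function CCNE1 had 9.56, 8.58 and 8.75 FPKM and then 4.68, 4.93 and 5.02 FPKM. CDC25A, the phosphatase that activates the kinases these cyclins bind, had 15.2, 14 and 13.5 FPKM in the controls, 14.2, 15 and 13.7 FPKM at 24 h and 8.59, 7.7 and 7.32 FPKM at 48 h. The 48 h values of all 3 genes lay below every control. FAM111B, a protease expressed with the cell cycle, had 8.12, 7.84 and 8.77 FPKM in the controls, 9.53, 9.65 and 9.01 FPKM at 24 h and 3.81, 2.53 and 3.11 FPKM at 48 h. Here the 24 h libraries lay above the controls and the 48 h libraries below them. PLK2, a polo-like kinase, had 6.4, 5.93 and 6.39 FPKM in the controls and 2.58, 2.29 and 2.43 FPKM at 48 h (-1.08 ± 0.05, adjusted p = 0.000106).

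The other genes at the bottom encode secreted, membrane and metabolic proteins. IGFBP1, a binding protein for insulin-like growth factors, had 2.74, 1.92 and 1.83 FPKM in the controls and 0.783, 0.346 and 0.51 FPKM at 48 h (-1.03 ± 0.15, adjusted p = 0.00245). CLDN11, a claudin of tight junctions, had 35.8, 33.4 and 32.1 FPKM and then 16.3, 16.1 and 17 FPKM. ANXA1, a calcium-dependent membrane-binding protein that dampens inflammation, had 80.2, 72.7 and 72.4 FPKM in the controls and 40.6, 38.7 and 41 FPKM at 48 h. None of these overlapped between the groups. APLN, the ligand of the apelin receptor, had 2.93, 2.27 and 2.45 FPKM and then 1.21, 0.745 and 1.01 FPKM. TIMM10, a chaperone of the space between the mitochondrial membranes, had 37.7, 36 and 35.9 FPKM in the controls and 20.6, 19.6 and 23.4 FPKM at 48 h. The remaining genes of the 20 lowest, EFEMP1, FAM167A, CLGN, VIPR1, SRGN, HKDC1 and SGPP2, had log2 fold changes of -0.85 to -0.76.

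**Figure D2:**
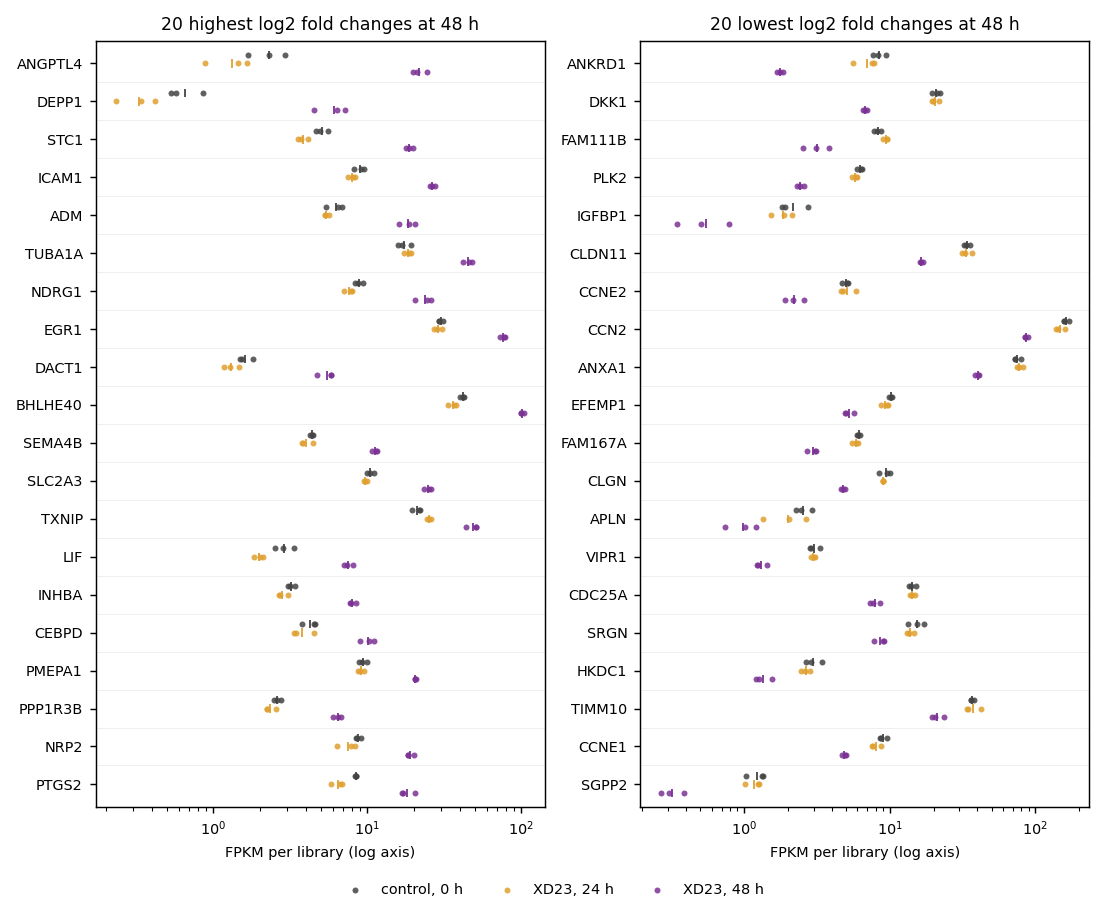
FPKM in each library (horizontal log axis) for the 20 highest genes (left) and 20 lowest genes (right) of the order, with points for libraries and ticks for group means in grey (control), orange (24 h) and purple (48 h). In each gene the 48 h points lie apart from the control points, from ANGPTL4 at 19.7 to 24.6 FPKM against 1.68 to 2.93 to SGPP2 at 0.267 to 0.386 FPKM against 1.03 to 1.34.

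These 40 genes were chosen for groups that do not overlap, so that feature is no result; 55.9% of all protein-coding genes tested had no overlap. The 24 h values were not used in the choice. No 24 h group overlapped its 48 h group in any of the 40 genes, but these were chosen for large changes at 48 h, which favours such a gap. Of the 20 highest, the 24 h values overlapped the controls in 10 genes and all lay below them in 9, namely ANGPTL4, DEPP1, STC1, NDRG1, DACT1, BHLHE40, LIF, NRP2 and PTGS2. Of the 20 lowest, 17 overlapped the controls at 24 h, PLK2 and EFEMP1 lay below them and FAM111B above. The 24 h and 48 h values are set against the same controls. How often 24 h values lay so over all genes was not counted, so these counts are a description only. The filter also touches this list, since 60 protein-coding genes passed it only through 48 h libraries (43 called) and 50 only through controls (29 called). DEPP1 is among the first, and IGFBP1 and SGPP2 among the second. No gene lay under 0.3 FPKM in all libraries of one group and at 1 FPKM or more in all of the other. Nearest to the limit of the filter were EIF2AK3 and LNX1 just inside it, with third-highest values of 1.0005 and 1.0007 FPKM, and CTSO and OASL just outside, at 0.9994 and 0.9983 FPKM.

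Ranked by FPKM gained or lost, other genes came first. The 13 genes encoded in mitochondrial DNA were left out of this ranking and have larger shifts at far higher levels. Of these MT-CO3, MT-ND2 and MT-CYB were called higher, with gains of 1354, 837 and 427 FPKM, and MT-ND1 was called lower, with a change of -464 FPKM. Among nuclear genes ESM1, a proteoglycan secreted by endothelial and tumour cells, gained most, with 198, 188 and 199 FPKM in the controls, 166, 167 and 195 FPKM at 24 h and 352, 369 and 365 FPKM at 48 h (0.89 ± 0.03, adjusted p = 6.35e-05). Calcium-binding S100 proteins followed, and S100A10, the partner of annexin A2, had 126, 122 and 117 FPKM, then 119, 122 and 148 FPKM, and 200, 199 and 233 FPKM at 48 h. S100A6 rose from 422, 396 and 409 FPKM to 532, 530 and 589 FPKM, and S100A11 from 336, 348 and 339 FPKM to 423, 428 and 434 FPKM. For both, the 24 h values (453, 444 and 596 FPKM for S100A6, 349, 359 and 449 FPKM for S100A11) also lay above the controls. MCL1, a short-lived protector from apoptosis, rose from 194, 190 and 193 FPKM to 263, 275 and 269 FPKM. DDIT4, an inhibitor of mTOR complex 1 induced by stress, rose from 91.6, 86.2 and 86.7 FPKM to 145, 168 and 169 FPKM. PLEK2, a pleckstrin of the actin cytoskeleton, gained 72.4 FPKM and LGALS1, the galactose-binding lectin galectin-1, 117 FPKM.

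Gains in MMP1 and ACTB were small beside their levels. MMP1, the interstitial collagenase, had 885, 911 and 974 FPKM in the controls, 903, 907 and 1045 FPKM at 24 h and 1033, 1037 and 1043 FPKM at 48 h (0.17 ± 0.04, adjusted p = 0.0197). That call was lost without 48 h replicate 1, control replicate 1 or control replicate 2 (adjusted p = 0.0561 to 0.0647). ACTB, β-actin, had 666, 688 and 691 FPKM and then 764, 712 and 756 FPKM at 48 h (0.13 ± 0.04, adjusted p = 0.0389), and lost its call without any 1 library other than 48 h replicate 2 (adjusted p = 0.076 to 0.126). ACTB also has processed copies that can share its reads.

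The largest losses of nuclear genes were in abundant ones. FTL, the light chain of the iron store ferritin, had 624, 594 and 608 FPKM in the controls, 645, 656 and 731 FPKM at 24 h and 460, 437 and 478 FPKM at 48 h (-0.41 ± 0.04, adjusted p = 0.000703). At 24 h it lay above the controls and at 48 h below them. YBX1, a protein that binds messenger RNA, had 435, 438 and 439 FPKM and then 302, 275 and 302 FPKM (-0.58 ± 0.04, adjusted p = 0.000253). PSAT1, an enzyme of serine synthesis, had 429, 426 and 402 FPKM in the controls and 306, 287 and 299 FPKM at 48 h. NPM1, the nucleolar chaperone nucleophosmin, fell from 311, 296 and 302 FPKM to 213, 203 and 219 FPKM. ATP5F1B, the catalytic subunit of mitochondrial ATP synthase, fell from 414, 398 and 401 FPKM to 324, 305 and 327 FPKM. PTMA, RPSA, EIF5A and the metallothionein MT2A fell by 0.26 to 0.42 on the log2 scale. FTL, YBX1, PTMA, RPSA, NPM1, EIF5A and MT2A all have near-identical copies or relatives, so their values are uncertain to that extent. Over all called nuclear genes that encode proteins, gains summed to 7859 FPKM and losses to -9928 FPKM, against a total of 188226 FPKM in the controls and 185290 FPKM at 48 h.

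**Figure D3:**
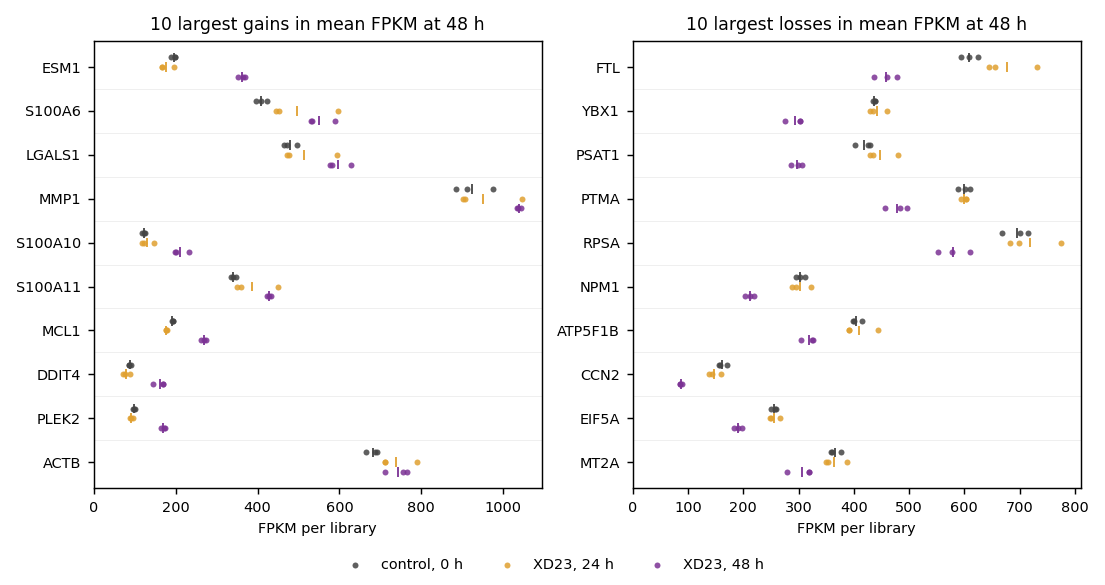
FPKM in each library (horizontal axis, from 0) for the 10 nuclear genes with the largest gains (left) and the 10 with the largest losses (right) in mean FPKM, with points for libraries and ticks for group means in grey (control), orange (24 h) and purple (48 h). ESM1 stands clear at 352 to 369 FPKM at 48 h, while MMP1 and ACTB moved little against their level.

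The most abundant nuclear genes were mostly not called. EEF1A1, the elongation factor that delivers transfer RNA to the ribosome, had 1791, 1736 and 1782 FPKM in the controls and 1703, 1654 and 1703 FPKM at 48 h (-0.07, adjusted p = 0.155). The glycolytic enzyme GAPDH had 1004, 972 and 970 FPKM and then 1015, 954 and 1006 FPKM (0.01, adjusted p = 0.8). TMSB10 (0.00), RPS2 (-0.08), RPL41 (-0.03), EEF2 (-0.03), HMGA1 (0.04), RPS18 (0.11) and RPL13A (-0.12) did not pass the test either. RPL13A (adjusted p = 0.058) passed it in several alternatives, among them without 48 h replicate 3 (adjusted p = 0.0365). Ribosomal protein genes, EEF1A1 and GAPDH have many processed copies that make their values uncertain. Missing the threshold does not show that a gene did not change, so the interval was used instead. For 174 protein-coding genes the 95% interval of the log2 fold change lay within -0.1 to 0.1. The most abundant of these were the chaperone HSP90AB1, with 688, 670 and 654 FPKM in the controls and 681, 648 and 691 FPKM at 48 h, the glycolytic enzyme ENO1, RPL10, S100A16, RPL15, the actin capping subunit CAPZA1, EIF4B and CCND1. CCND1, the D-type cyclin of the G1 phase, had 146, 153 and 149 FPKM and then 151, 154 and 149 FPKM.

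Gene families, matched by patterns in their symbols and grouped by role, were then followed through the order. Members of a family need not share a stem, and a gene can sit in different families, as TXNIP does. The 92 families hold 3460 of the protein-coding genes, of which 39.2% were called, close to the 40.3% of the 7308 genes outside them. The families had been listed with earlier results of these data known, so counts and medians are a description. Over all protein-coding genes 19.7% were called higher, 20.2% lower and the median log2 fold change was -0.01. The median was above 0 in 56 families.

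Stress-inducible regulators had the highest median, 0.33. This family of small regulators, among them the GADD45 and TRIB proteins, sestrins, BTG and TOB proteins and C/EBP factors, holds genes that cells switch on to pause growth. Of 42 tested members 28 were higher (66.7%) and 4 lower (9.52%). The family median over the controls was 0.29, 0.35 and 0.38 in the 3 48 h libraries. Beside BHLHE40, TXNIP and CEBPD, the members called higher included DDIT3 (0.48), ATF3 (0.45), GADD45A (0.49), GADD45B (0.47), PPP1R15A (0.41) and SESN2 (0.26). The members called lower were CEBPZ (-0.15), which was taken in by its symbol, ATF5, ATF4 and TRIB3. ATF4, the central factor of the integrated stress response, had 295, 294 and 299 FPKM in the controls, 301, 302 and 306 FPKM at 24 h and 253, 242 and 259 FPKM at 48 h (-0.23 ± 0.03, adjusted p = 0.00239). ATF5, a relative that guards mitochondria, had 5.43, 5.74 and 5.84 FPKM and then 3.79, 3.71 and 4.38 FPKM (-0.43 ± 0.06). TRIB3, a pseudokinase whose gene ATF4 drives, had 26.8, 27.3 and 29 FPKM in the controls and 22.1, 23.1 and 25.2 FPKM at 48 h (adjusted p = 0.0158, or 0.0532 without control replicate 3). Of other known targets of ATF4, DDIT3 and CHAC1 (0.51) were called higher and PSAT1 (-0.49) and MTHFD2 (-0.46) lower. The targets of ATF4 were not counted as a set, so these are examples only.

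Families of contact and guidance signals followed. Ephrins and Eph receptors, which repel cells on contact, had a median of 0.27, with 7 of 9 higher and none lower. The receptor EPHA4 had 3.28, 3.64 and 3.7 FPKM in the controls and 6.56, 6.55 and 6.06 FPKM at 48 h (0.70 ± 0.05, adjusted p = 0.000314), and the ligand EFNB1 26.8, 28.5 and 26.3 FPKM and then 37.3, 37.5 and 36.5 FPKM. Neither overlapped between the groups, but both were picked among the called members with the largest changes, and 55.9% of all protein-coding genes tested had no overlap. The call on EFNA2 (0.36, adjusted p = 0.0398) was lost without any 1 library other than control replicate 1 (adjusted p = 0.0563 to 0.117). Semaphorins, plexins and neuropilins, the cues and receptors that steer axons and vessels, had a median of 0.24, with 9 of 15 higher and none lower. SEMA4B had 4.36, 4.23 and 4.47 FPKM in the controls and 10.7, 11.4 and 11.5 FPKM at 48 h, and NRP2 8.45, 9.15 and 8.63 FPKM and then 18.4, 20 and 18.5 FPKM. SEMA7A, a semaphorin anchored to the membrane by lipid, had 14.7, 15.3 and 14 FPKM in the controls and 21.8, 21.4 and 21.3 FPKM at 48 h. The receptors NRP1 (0.44), PLXNA1 (0.39), PLXNA3 (0.38), PLXNB2 (0.31) and PLXND1 (0.18) were called higher too. The median was 0.42 over the members with at least 5 FPKM.

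Netrin and slit pathways, guidance cues of another kind, went both ways, with 4 of 9 higher and 3 lower and a median of 0.03. The receptor NEO1 (0.25) and the ligand NTN1 (0.24) were higher. NTN1 had 3.1, 3.09 and 3.31 FPKM in the controls and 3.98, 3.91 and 3.89 FPKM at 48 h. Another netrin, NTN4, had 2.81, 2.83 and 2.69 FPKM and then 1.49, 1.22 and 1.3 FPKM (-0.69 ± 0.07, adjusted p = 0.000608). The slit receptors differed in the same way, with ROBO1 (0.19) called higher and ROBO4 (-0.48) and ROBO3 (-0.29) lower. RGMB, a ligand of NEO1, was called higher (0.21, adjusted p = 0.0293), but not without 48 h replicate 2 or 3 or control replicate 1 or 3 (adjusted p = 0.0723 to 0.0881). The median of this family was -0.01 with the trend on exon length removed, -0.00 without 48 h replicate 3 and 0.19 over members with at least 5 FPKM.

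Families of developmental transcription factors came next. SOX factors, which set cell identity, had a median of 0.25, with 5 of 8 higher and none lower. SOX9, the master factor of cartilage, had 34.3, 36.7 and 34.8 FPKM in the controls, 35.4, 34.7 and 37.2 FPKM at 24 h and 51.7, 53.5 and 53.3 FPKM at 48 h (0.57 ± 0.03, adjusted p = 0.000186). SOX4 had 21.9, 20.8 and 21.8 FPKM and then 32.1, 33.6 and 32.8 FPKM. SOX17, an endoderm and endothelial factor, had 0.96, 1.09 and 0.999 FPKM in the controls and 1.66, 1.86 and 1.91 FPKM at 48 h. The 48 h libraries were higher throughout in these 3 genes, which were picked as the called members with the largest changes, so that is no result. The median of the SOX family was 0.43 over the members with at least 5 FPKM. Forkhead factors other than FOXO had a median of 0.18, with 10 of 17 higher and 2 lower. FOXA2 had 12.7, 12 and 12.8 FPKM in the controls and 15.4, 15.5 and 16.3 FPKM at 48 h (0.31 ± 0.04), and FOXF1 4.53, 4.59 and 4.93 FPKM and then 5.84, 5.45 and 5.96 FPKM. FOXM1, which drives genes of mitosis, fell from 12.3, 13.1 and 11.5 FPKM to 10.7, 10.1 and 9.46 FPKM (-0.26 ± 0.06, adjusted p = 0.0155). FOXC1 (0.30) lost its call without 48 h replicate 3 or control replicate 1 or 3 (adjusted p = 0.0506 to 0.0584), and FOXD1 (-0.24) without 48 h replicate 1 or 3 or control replicate 1 or 3 (adjusted p = 0.0634 to 0.089).

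Members of the tumour necrosis factor superfamily, ligands, receptors and their adaptors, had a median of 0.22, with 12 of 24 higher and none lower. Among ligands, TNFSF9 (0.47) and CD70 (0.28) were called higher. Among receptors, the co-stimulatory receptor TNFRSF9 had 0.732, 0.811 and 0.815 FPKM in the controls, 0.653, 0.56 and 0.574 FPKM at 24 h and 1.44, 1.84 and 1.57 FPKM at 48 h (0.55 ± 0.09, adjusted p = 0.00361). TNFRSF9 passed the filter through the 48 h libraries alone. The death receptor TNFRSF10B (0.35) and the receptors TNFRSF1A (0.25) and LTBR (0.18) were called higher, whereas FAS (0.20) and TNFRSF10A (0.21) did not pass. RIPK4, a kinase taken in by its symbol, had 4.94, 4.91 and 4.87 FPKM in the controls and 7.07, 7.51 and 7.95 FPKM at 48 h. Among adaptors, the ubiquitin ligase TRAF6 had 3.52, 3.56 and 3.99 FPKM and then 5.28, 6.06 and 5.41 FPKM. FADD (-0.14) and TRAF2 (-0.03) did not pass.

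Laminins and other glycoproteins of the matrix and basement membrane had a median of 0.20, with 18 of 32 higher and 2 lower. HSPG2, the basement membrane proteoglycan perlecan, had 1.51, 2.18 and 1.71 FPKM in the controls and 3.36, 3.83 and 3.02 FPKM at 48 h (0.65 ± 0.11, adjusted p = 0.00403). Among laminin chains LAMA5 (0.37), LAMC1 (0.26), LAMA1 (0.21), LAMB3 (0.20) and LAMB1 (0.12) were higher beside LAMB2. Fibronectin, FN1 (0.25), and the latent TGF-β binding proteins LTBP3 (0.48), LTBP2 (0.41), LTBP1 (0.26) and LTBP4 (0.20) were higher too. TNS3, a focal adhesion protein taken in by its symbol, had 10.3, 11.7 and 11.3 FPKM in the controls and 18.3, 18.1 and 16.8 FPKM at 48 h. The fibulins of elastic fibres were split, since EFEMP2 was called higher (0.59, adjusted p = 0.0159, or 0.0517 without 48 h replicate 2) and EFEMP1 fell from 10.4, 10.2 and 9.89 FPKM to 5.65, 4.95 and 5.03 FPKM (-0.85 ± 0.05, adjusted p = 0.000187). The other lower member, MFAP1 (-0.38), is a spliceosome protein despite its name. Phosphodiesterases, which break down cyclic nucleotides, had a median of 0.15, with 3 of 8 higher and none lower. All 3 belong to the PDE4 group that splits cyclic AMP, and PDE4B had 7.43, 8.47 and 8.5 FPKM in the controls and 12.2, 12.6 and 13.2 FPKM at 48 h (0.58 ± 0.06, adjusted p = 0.000673). PDE4A (0.25) was called as well, and PDE4D (0.25, adjusted p = 0.0227) lost its call without 48 h replicate 2 or control replicate 1 or 2 (adjusted p = 0.0537 to 0.071).

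At the other end stood families of mitochondria and growth metabolism, led by the machinery that imports proteins into mitochondria, with a median of -0.19. Of 50 tested members 23 were lower (46.0%) and 2 higher, and the family median was -0.17, -0.22 and -0.15 in the 3 48 h libraries. Beside TIMM10, the inner membrane protein DNAJC19 had 11.1, 10.7 and 11.3 FPKM in the controls and 7.98, 7.11 and 7.61 FPKM at 48 h (-0.49 ± 0.05, adjusted p = 0.000627). The prohibitin PHB1, whose copies make its value uncertain, had 21.5, 20.3 and 19.3 FPKM and then 15.2, 14.2 and 14.5 FPKM. The entry channel TOMM40 (-0.25) and its receptors TOMM22 (-0.32) and TOMM20 (-0.12) were lower, as were the inner membrane motor subunit TIMM44 (-0.36) and the matrix protease LONP1 (-0.43). TOMM34, a co-chaperone in the cytosol, was higher, with 145, 152 and 147 FPKM in the controls and 172, 175 and 176 FPKM at 48 h (0.23 ± 0.03, adjusted p = 0.00158). TIMM23, which has a near-identical copy, was called higher at 0.14.

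Purine and pyrimidine synthesis had a median of -0.18, with 29 of 55 members lower (52.7%) and 4 higher (7.27%). RRM1, the large subunit of the reductase that makes deoxynucleotides, had 60.1, 60.3 and 59.2 FPKM in the controls, 56.9, 57.5 and 57.3 FPKM at 24 h and 41.7, 37.8 and 40.7 FPKM at 48 h (-0.57 ± 0.04, adjusted p = 0.000242). Its 24 h values lay between the other groups without overlap. Further steps of the making of deoxynucleotides, TK1 (-0.45), DUT (-0.32), TYMS (-0.28) and RRM2 (-0.26), were lower, as were the purine enzymes PAICS (-0.35), IMPDH2 (-0.33) and GART (-0.32) and the pyrimidine enzyme UMPS (-0.36). UPP1, which breaks down uridine, had 58.6, 56.2 and 54.7 FPKM in the controls and 33.7, 35.3 and 37 FPKM at 48 h (-0.66 ± 0.04). AK5, an adenylate kinase, had 10.4, 10 and 10.9 FPKM and then 6.37, 5.81 and 6.37 FPKM. The members called higher were NT5E, the surface enzyme that makes adenosine, at 17.4, 18.6 and 17 FPKM and then 24.5, 24.1 and 23.2 FPKM, AK3 (0.32), AK4 (0.18) and IMPDH1. The call on IMPDH1 (0.24, adjusted p = 0.0182) was lost without control replicate 1 or 3 (adjusted p = 0.0574 to 0.0578).

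The folate and methionine cycles, which supply single carbon units, had a median of -0.13, with 16 of 35 members lower and 1 higher. MTHFD2, a mitochondrial folate enzyme of growing cells, had 53.9, 50.9 and 51.5 FPKM in the controls and 37.6, 38 and 37 FPKM at 48 h (-0.46 ± 0.03, adjusted p = 0.000233). In the polyamine branch both directions met, with the synthetic enzymes SRM (-0.45) and ODC1 (-0.28) lower and SAT1, which breaks polyamines down, higher at 15.4, 14.8 and 15.4 FPKM in the controls and 19.9, 19.4 and 22.6 FPKM at 48 h (0.42 ± 0.06, adjusted p = 0.00223).

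The tricarboxylic acid cycle and its neighbours had a median of -0.12, with 14 of 39 members lower and 5 higher. GOT1, the cytosolic aspartate aminotransferase, had 54.2, 51.4 and 52.4 FPKM in the controls and 39.6, 37.8 and 38 FPKM at 48 h (-0.44 ± 0.03, adjusted p = 0.000288). DLD, a subunit shared by several dehydrogenases, had 29.8, 29.9 and 30.2 FPKM and then 22.9, 22 and 22 FPKM, and PCK2 50.6, 52.3 and 51.5 FPKM and then 40.3, 38 and 40.8 FPKM. Within the cycle SDHD (-0.32), IDH3B (-0.31), SDHC (-0.28), SDHB (-0.25) and FH (-0.19) were lower. IDH2, the isocitrate dehydrogenase that makes NADPH in mitochondria, was higher at 18.9, 17.8 and 19.9 FPKM in the controls and 23.5, 24.6 and 26.3 FPKM at 48 h (0.38 ± 0.05, adjusted p = 0.00243), and so were ACLY (0.24), CS (0.13) and DLST. Mitochondrial carriers had a median of -0.09, with 15 of 48 lower and 6 higher. The uncoupling protein gene UCP2 fell from 10.4, 10.1 and 8.69 FPKM to 6.26, 6.17 and 5.64 FPKM (-0.61 ± 0.07) and SLC25A43 rose from 6.98, 6.96 and 7.28 FPKM to 9.23, 9.98 and 10.6 FPKM. SLC25A27 (-0.33) lost its call without 48 h replicate 1 or 2 or control replicate 1 (adjusted p = 0.0523 to 0.0644), and SLC25A42 (0.30) without 48 h replicate 2 or 3 or control replicate 1 (adjusted p = 0.0636 to 0.065).

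Glutathione and thioredoxin genes had a median of -0.10, with 20 of 49 members lower and 8 higher. The family also holds TXNIP and its arrestin relatives. Beside TXNIP, ARRDC3 had 10.5, 9.81 and 10.1 FPKM in the controls, 9, 7.91 and 8.83 FPKM at 24 h and 19.2, 20.2 and 18.3 FPKM at 48 h (0.86 ± 0.05, adjusted p = 0.000136), and ARRDC4 1.3, 1.43 and 1.45 FPKM and then 2.54, 3.21 and 2.97 FPKM. Among the enzymes TXNRD1, the cytosolic thioredoxin reductase, had 44.8, 44.6 and 45 FPKM, then 42.2, 43.5 and 43.2 FPKM at 24 h and 34.3, 34 and 33.3 FPKM at 48 h (-0.39 ± 0.03, adjusted p = 0.000226). MGST1, a membrane glutathione transferase, fell from 12.5, 12.2 and 13.1 FPKM to 8.42, 8.39 and 8.34 FPKM. TXN (-0.35), GSS (-0.34), GSTP1 (-0.32) and PRDX3 (-0.24) were lower, whereas CAT (0.17), SOD2 (0.22) and GCLM (0.24) were higher. The median of this family was -0.02 with the trend on exon length removed, -0.19 over members with at least 5 FPKM and -0.04 without 48 h replicate 2.

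Subunits of RNA polymerases I, II and III had a median of -0.14, with 14 of 31 lower and 4 higher. The RNA polymerase III subunit POLR3B had 11, 11.1 and 10.4 FPKM in the controls and 8.07, 8.1 and 7.71 FPKM at 48 h (-0.40 ± 0.04, adjusted p = 0.00071), and POLR3K changed by -0.36. The largest subunit of the same enzyme, POLR3A, was called higher (0.17, adjusted p = 0.0171, or 0.0572 without control replicate 3). POLR2M (0.17) lost its call without 48 h replicate 1 or 2 or control replicate 2 or 3 (adjusted p = 0.055 to 0.106), and POLR1B (0.13) without any 1 library other than 48 h replicate 3 (adjusted p = 0.0751 to 0.131). Nucleoporins, the building blocks of the nuclear pore, had a median of -0.10, with 14 of 31 lower and 2 higher. NUP37 had 18.1, 16.6 and 15.9 FPKM and then 12, 11.9 and 13.3 FPKM (-0.41 ± 0.06, adjusted p = 0.00255), and NUP155 21.7, 22.1 and 20.8 FPKM and then 17.5, 17.3 and 16.2 FPKM. NUP93, a scaffold of the inner ring, was higher at 7.66, 7.37 and 6.92 FPKM in the controls and 8.81, 8.87 and 9 FPKM at 48 h. NUP98 (0.19) lost its call without 48 h replicate 1 or 2 or control replicate 1 or 3 (adjusted p = 0.0685 to 0.0751). The nucleoporin median was -0.06 without 48 h replicate 3.

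**Figure D4:**
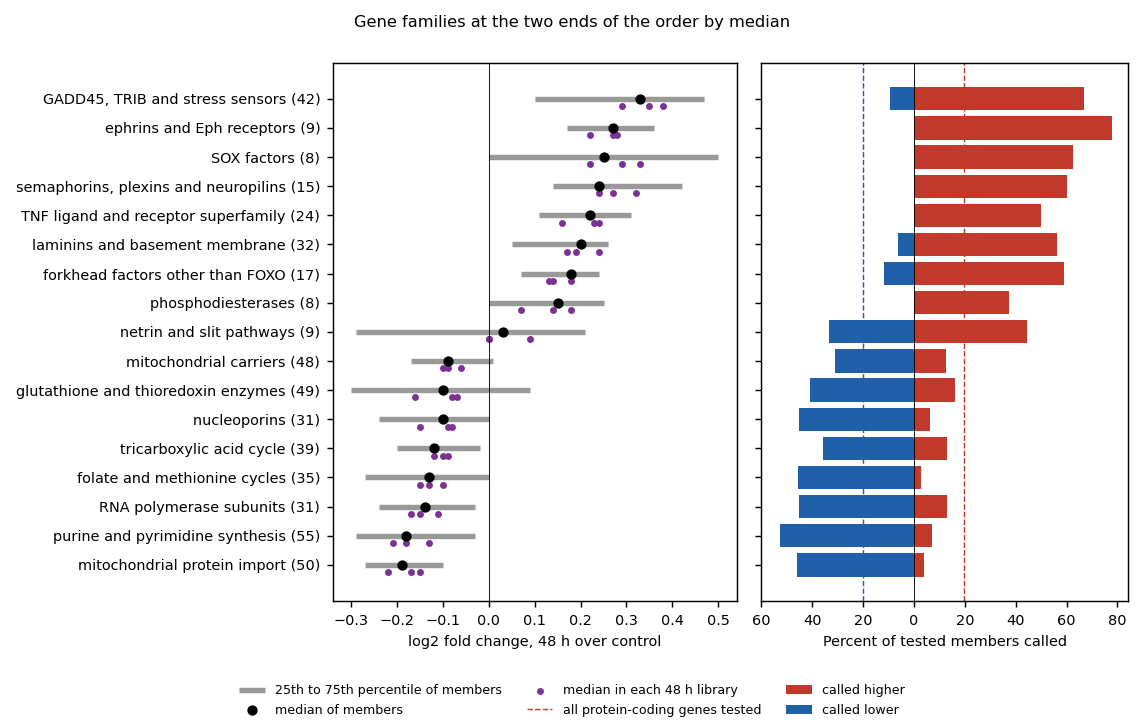
Left, the median log2 fold change of 17 gene families (black points, number of tested members in brackets) with the 25th to 75th percentile of members (grey bars) and the median in each 48 h library over the control mean (purple points). Right, the percent of members called higher (red) or lower (blue), with dashed lines at the 19.7% and 20.2% of all protein-coding genes tested; the families run from stress sensors at 0.33 to mitochondrial protein import at -0.19.

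The medians of the other families lay between -0.09 and 0.15. Some held members far apart, such as the IGF axis, from IGFBP1 at -1.03 to STC1 at 1.71, with 5 of 17 higher and 4 lower. Claudins and connexins ran from CLDN11 at -0.99 to GJA1 at 0.70, and immunoglobulin adhesion proteins from ALCAM at -0.62 to ICAM1 at 1.46. None of the 16 histone deacetylases and sirtuins was called, by limma over all genes, and their median was 0.01. Of the 311 Krüppel-type zinc finger genes 35 were higher (11.3%) and 41 lower (13.2%), both below the 19.7% and 20.2% of all protein-coding genes tested. MAP kinase cascade kinases had 13 of 47 higher and none lower, interleukin receptors and JAK-STAT genes 17 of 38 higher and 1 lower, protein tyrosine phosphatases 14 of 27 higher and 2 lower, and immunoglobulin adhesion proteins 12 of 24 higher and 1 lower. Importins and exportins had 10 of 23 lower (43.5%) and none higher, and translation initiation factors 21 of 53 lower (39.6%) and 3 higher. HOX genes had 4 of 29 higher (13.8%) and 5 lower (17.2%). Autophagy genes had 10 of 53 higher (18.9%) and 3 lower (5.66%), and the Golgi glycosyltransferases 15 of 79 higher (19.0%) and 26 lower (32.9%). In autophagy genes and Golgi glycosyltransferases the share called higher was near that of all protein-coding genes.

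Position in the order moved with the length and level of a gene. The genes with the shortest exons in sum (up to 3003 bases) were called higher in 12.6% and lower in 28.9%, with a median of -0.08. Those with the longest (over 8365 bases) were called higher in 23% and lower in 11.5%, with a median of 0.04. By the GC content of the longest transcript the shares were 15.7% higher and 23.7% lower at the low end and 22.6% and 14.7% at the high end. Genes at 30 to 100 FPKM were called lower in 38.5% and higher in 20.5%, and those under 2 FPKM in 8.10% and 10.5%. At 300 FPKM and above the shares were 16.0% and 13.3%, with a median of -0.02. Precision differed between levels too, with a median standard error of 0.08 under 2 FPKM and 0.04 at 30 to 100 FPKM. The families differ in length too, with a median exon length of 3283 bases in mitochondrial protein import, 3539 in the stress sensors, 7951 in laminins and basement membrane and 7619 in nucleoporins, against 5177 for all protein-coding genes tested. With the trend on exon length removed, an alternative chosen after seeing the data, the medians of these 4 families were -0.14, 0.37, 0.17 and -0.14. That fit called 2243 protein-coding genes higher and 2094 lower. With the trend on GC content removed, also chosen after seeing the data, 2322 were higher and 1952 lower. Of those calls 54.3% were higher, against 49.4% in the main fit. Beyond such refits the part of length, GC content and level in the results was not tested.

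**Figure D5:**
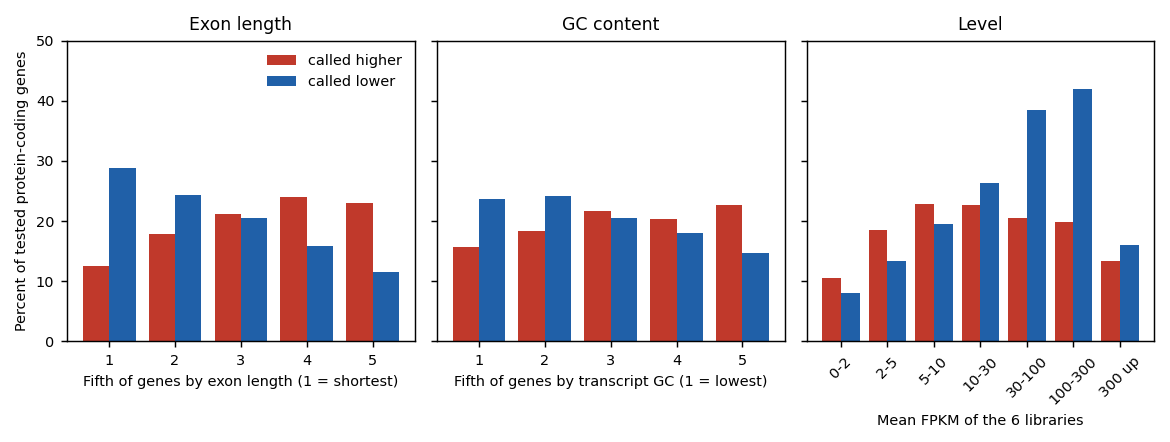
Percent of tested protein-coding genes called higher (red) or lower (blue) at 48 h, by exon length and by transcript GC content in 5 groups of equal size, and by mean FPKM of the 6 libraries. The share called lower drops from 28.9% to 11.5% from the shortest to the longest genes. By level it reaches 42.0% at 100 to 300 FPKM and is 16.0% at 300 FPKM and above.

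Promoter sequences differed between the ends of the order and its middle. RefSeq promoters were matched to 8836 of the 10768 genes and to 28 of the 40 genes at the ends, and each was searched on both strands, counting a promoter once per motif whatever else it held. The motifs followed through all bands, chosen after their shares were seen, were TATAAA, TTTCCCGC or TTTGGCGC (E2F) and CCGGAAGT (ETS). TATAAA was in 12.3% of the 211 promoters of genes with a log2 fold change of at least 0.5 and in 15.2% of the 99 with one under -0.5. In the bands within 0.25 of 0 it was in 4.48% and 4.6%, and in all 35116 promoters of the table in 11.5%. On the strand of the gene and starting 40 to 20 bases before the start, as in the promoters of ANGPTL4, ADM, DKK1 and CCN2 printed above, it was in 7.11% and 6.06% at the ends, in 1.03% and 1.13% in the middle and in 2.30% of all promoters.

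The E2F letters, printed above in CDC25A, changed in share from end to end. They were in 19.2% of promoters under -0.5, in 6.00% from -0.5 to -0.25, in 4.51% and 2.95% around 0, in 2.30% from 0.25 to 0.5 and in 0.948% from 0.5 up, against 2.27% of all promoters of the table. The ETS letters were in 6.06%, 12.5%, 11.1%, 9.22%, 3.63% and 0.948% over the same bands and in 4.14% of all promoters.

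The other motifs searched were the CCAAT box by these letters, the GC box as GGGCGG, the hypoxia response core as ACGTG in one form and as GCGTG in another, AP-1 as TGANTCA, CRE as TGACGTCA, the E-box as CACGTG, TEAD as GGAATG, YY1 as AAGATGGC, and the NRF1 site, the CArG box of SRF and the NF-kB site. Several of these letters overlap, since CACGTG holds ACGTG. Their shares are given for genes called higher by at least 0.5, then genes called lower by at least 0.5, then all tested genes with a promoter. The hypoxia core was in 53.6%, 66.7% and 64.9%, TEAD in 9%, 11.4% and 10.3%, and AP-1 in 7.58%, 7.62% and 4.19%. NRF1 was in 3.32%, 12.4% and 12.6%, YY1 in 0.474%, 2.86% and 5.83%, and CRE in 0.948%, 4.76% and 3.52%. CCAAT was in 32.2%, 41.9% and 36.6%, the GC box in 65.4%, 68.6% and 72.6%, and the E-box in 7.58%, 12.4% and 10.4%. NF-kB was in 19%, 13.3% and 13.2%, and the CArG box in 1.9%, 1.9% and 1.11%. Over all promoters of the table the shares of the hypoxia core, TEAD and AP-1 were 48.4%, 14% and 7.71%, of NRF1, YY1 and CRE 5.78%, 2.89% and 1.85%, of CCAAT, the GC box and the E-box 34.6%, 45% and 7.26%, and of NF-kB and the CArG box 11.3% and 1.29%. These shares describe letters in a window, were given no test and say nothing of whether a factor was bound.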

How the data were processed

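RNA of 143B cells was measured by paired-end sequencing of oligo(dT)-selected RNA, per the labels' protocols. The authors deposited 1 table of FPKM per gene for all libraries. The submitters' processing notes name HISAT2, Subread, featureCounts, DESeq2 and hg38, with no versions, and whether counting used strand is not given in the sources used here, so overlapping antisense genes cannot be told apart. FPKM times gene length gave an estimate of the depth, and 1 fragment on 1 kb was worth 0.0437 to 0.0545 FPKM. At these depths 63.57% to 64.09% of genes came out as whole fragments in the 6 libraries compared, genes at 0 FPKM included.

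Values were taken as log2(FPKM + 1), genes reaching 1 FPKM in 3 or more libraries were kept, and groups were compared with limma 3.58.1 in R 4.3.3 (trended empirical Bayes, 4 residual degrees of freedom, two-sided, Benjamini-Hochberg over 13225 genes, called at 0.05). Fold changes on this scale understate those of low genes. The script was tested on simulated data. Gene types and lengths came from GENCODE 29. Named genes were the 20 highest and 20 lowest called genes without overlap, the 10 largest gains and losses in FPKM, the 10 most abundant, 7 percentiles, 8 stable genes, up to 3 called members each way of the outer families, DKK1, and genes at the filter's edge or in marker lists; other family members were chosen after their values were seen. The members and lists were chosen with earlier results of these data known. Removing trends on exon length or GC content was chosen after seeing the data. A few named genes are not reported here.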

Additional observations from a re-analysis of the deposited data

How the results depend on the processing

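The compound and the time in culture cannot be told apart, 3 libraries a group leave 4 residual degrees of freedom, and low genes rest on few fragments. With a change of at least 1 also required, all genes gave 35 higher and 35 lower and protein-coding genes 21 higher and 5 lower. Median-of-ratios scaling gave 2705 higher and 2071 lower over all genes (56.6% of calls higher, against 46.7%) and moved the median of all genes from -0.022 to 0.008. Leaving out each library in turn gave 1678 to 1957 higher and 1852 to 2311 lower over all genes, and 1569 to 1838 and 1571 to 1970 over protein-coding genes. The replicate numbers did not pair the libraries (correlations of same-numbered libraries -0.002, 0.109 and 0.027), and with the replicate block 2034 were higher and 2378 lower over all genes, 1884 and 1987 over protein-coding genes; control replicate 1 correlated more with 48 h replicate 3 (0.061) than with its own number. Of 2937 fits of 156 named genes under the alternatives, 2835 stayed on their side of the threshold, 91 lost the call and 11 gained it. No called gene changed sign, while genes near 0 that were not called could, such as EEF2 (-0.09 to 0.01) and GAPDH (-0.02 to 0.07). DKK1 stayed at -1.61 to -1.42 and called throughout. Of the family medians under the alternatives 286 moved by less than the spread between 48 h libraries and 37 by more.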

Other observations

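Genes of other types were seldom called higher. Of the 2457 tested genes that are not protein-coding, 129 were higher (5.3%) and 401 lower (16.3%), with a median log2 fold change of -0.09. Over all 13225 genes tested 17.1% were higher and 19.5% lower, so the share called lower was below that of all genes too. Among antisense genes 27 of 519 were higher (5.2%) and 101 lower (19.5%). Among long intergenic RNAs 36 of 388 were higher (9.3%) and 59 lower (15.2%). Of the 517 processed pseudogenes 15 were higher (2.9%) and 69 lower (13.3%), and reads of these copies can come from their parent genes. None of the 75 small nucleolar RNA genes was higher and 15 were lower; such short RNAs are poorly captured by oligo(dT) selection, and their part in the result was not tested. Of the 13 mitochondrially encoded protein genes 3 were higher (23.1%) and 1 lower (7.7%), with a median of 0.04.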
